A study of Homo sapiens with 4 samples.

Results

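The SLC25A genes encode the mitochondrial carrier family, the membrane proteins that move nucleotides, phosphate, acids of the citric acid cycle, amino acids, cofactors and metal ions across the mitochondrial inner membrane. Members were all protein-coding genes of the RefSeq annotation whose symbol starts with SLC25A, 48 of 20037. The carriers of the inner membrane are encoded in the nucleus, made in the cytosol and inserted there by the TIM22 route. The ADP/ATP and phosphate carriers supply ATP synthase with its substrates. Members elsewhere in the cell include SLC25A17, a peroxisomal carrier, and SLC25A46, an outer membrane protein of mitochondrial dynamics. The study's title links NIT2, an omega-amidase, to oxidative phosphorylation, and the comparison here is of which carrier genes hold the histone mark in each library. H3K14ac, acetylation of lysine 14 on histone H3, is a mark of active promoters and enhancers.

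The cells were MKN45, an established gastric cancer line. Of the H3K14ac libraries, 1 was from cells carrying the control hairpin shNT and 1 from cells carrying shNIT2, a hairpin that targets NIT2. A further 2 input libraries, made without antibody, were not used here. The labels name no drug for these samples and do not say whether the cells were clones or pools, and the level of NIT2 was not measured in these data. With 1 library per hairpin there is no test across samples, and every difference below compares 2 peak lists. Of 12 epithelial marker genes, 12 had a region within 1 kb of a gene end in shNIT2 (36.8% of all genes did) and 5 in shNT (6.41%). Of 13 markers of blood, stromal, endothelial, liver and nerve cells, 1 (CD3E) had one in shNIT2 and 0 in shNT. Within the gene span or 1 kb around it, 5 of the 13 had a shNIT2 region (47% of all genes did) and 4 a shNT region (28.5%).

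The shNT list held more regions, 39876 against 28187 in shNIT2, on fewer fragments each. The fragment pileup at a region's summit, solved from the authors' fold enrichment and p-value, had a median of 6 in shNT and 22 in shNIT2. The lowest local background solved in the same way was 0.278 fragments for shNT, and that of shNIT2, 2.48 fragments, was 8.93 times as high. The fold enrichment is the ratio of pileup to local background with a pseudocount of 1 on each, and the folds are the authors' own values. They order regions within a list and are not set against each other between lists.

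A gene was called marked when a region touched a window of 1 kb on either side of one of its ends. In shNIT2, 23 of the 48 carrier genes were marked (47.9%), against 36.8% of all protein-coding genes. In shNT, 0 of 48 were marked, against 6.41% of all protein-coding genes, a share that would correspond to 3.08 of 48 genes. All 23 were thus marked in shNIT2 alone, a class that held 31.7% of all genes. The classes marked in both lists (5.12% of all genes) and in shNT alone (1.29%) held 0 carrier genes. Over the whole gene span with 1 kb added on both sides, 25 members had a region in shNIT2 (47% of all genes did) and 12 in shNT (28.5%). For 19 members neither list had a region, as for 44.1% of all genes. A region that marks a gene may also touch the end of a neighbour, and such neighbours are named below.

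**Figure D1:**
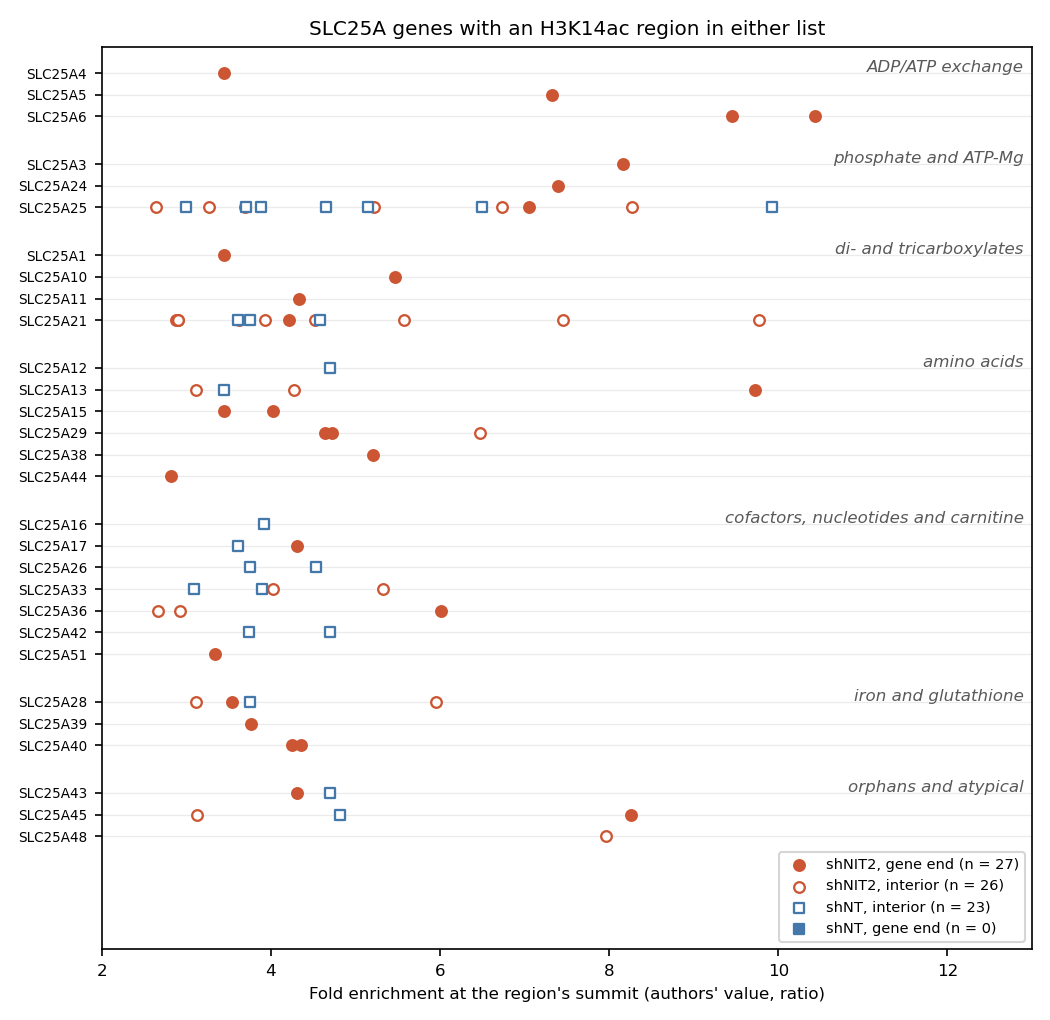
Each row is an SLC25A gene with a region in either list, grouped by role, and each symbol is 1 region placed by the authors' fold enrichment (a ratio, within its own list). Filled circles are the 27 shNIT2 regions at gene ends, open circles the 26 shNIT2 regions in gene interiors and open squares the 23 shNT regions, all of them interior. The highest filled circle, at 10.4, belongs to SLC25A6, and the next, at 9.72, to SLC25A13.

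Of the 4 ADP/ATP carriers 3 were marked in shNIT2 (36.8% of all genes were), and the germ-cell paralogue was not. The upstream sequences of 7 carrier genes are shown first, to pair these 4 with the marked members of highest fold. Each is the 250 bases before the RefSeq start (assembly GRCh38.p14, the files using hg38), 5′ to 3′ on the gene's own strand. Capitals mark matches, on either strand, to the letters of 5 motifs. These were GGGCGG for the GC box and CCAAT for the CCAAT box. They were also CACGTG for the E box and CCGGAAG for the ETS motif, with TATAAA for the TATA box. An NRF1 motif (GCGCA followed directly by its reverse complement) and the ERR element (TCAAGGTCA) were searched too and were found in none of these windows. No match overlapped a match of another motif in the 7 windows. The windows lie at chr4:185143016-185143265 (SLC25A4, plus strand), chrX:119468194-119468443 (SLC25A5, plus strand), chrX:1392114-1392363 (SLC25A6, minus strand), chr4:127730150-127730399 (SLC25A31, plus strand), chr7:96322099-96322348 (SLC25A13, minus strand), chr11:65382647-65382896 (SLC25A45, minus strand) and chr12:98593436-98593685 (SLC25A3, plus strand).
SLC25A4: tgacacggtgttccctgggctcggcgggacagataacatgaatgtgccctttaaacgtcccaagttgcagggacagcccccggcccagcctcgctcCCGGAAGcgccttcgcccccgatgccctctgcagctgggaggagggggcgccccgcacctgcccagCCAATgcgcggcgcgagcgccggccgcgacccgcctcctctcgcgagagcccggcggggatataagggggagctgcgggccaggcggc
SLC25A5: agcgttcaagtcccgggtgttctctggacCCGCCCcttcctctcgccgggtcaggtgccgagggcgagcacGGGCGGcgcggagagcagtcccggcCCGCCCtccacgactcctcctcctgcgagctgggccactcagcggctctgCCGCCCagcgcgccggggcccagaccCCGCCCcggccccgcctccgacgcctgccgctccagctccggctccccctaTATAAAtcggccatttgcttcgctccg
SLC25A6: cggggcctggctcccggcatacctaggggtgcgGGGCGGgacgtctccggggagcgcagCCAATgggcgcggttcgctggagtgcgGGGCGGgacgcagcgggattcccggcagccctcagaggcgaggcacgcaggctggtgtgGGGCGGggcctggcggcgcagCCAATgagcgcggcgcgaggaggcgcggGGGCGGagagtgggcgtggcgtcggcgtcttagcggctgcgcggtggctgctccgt
SLC25A31: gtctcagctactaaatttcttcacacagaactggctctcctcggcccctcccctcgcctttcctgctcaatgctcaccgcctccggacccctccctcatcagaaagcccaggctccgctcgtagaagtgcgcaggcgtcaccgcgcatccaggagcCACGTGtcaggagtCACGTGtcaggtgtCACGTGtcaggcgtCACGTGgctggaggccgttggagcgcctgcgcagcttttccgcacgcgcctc
SLC25A13: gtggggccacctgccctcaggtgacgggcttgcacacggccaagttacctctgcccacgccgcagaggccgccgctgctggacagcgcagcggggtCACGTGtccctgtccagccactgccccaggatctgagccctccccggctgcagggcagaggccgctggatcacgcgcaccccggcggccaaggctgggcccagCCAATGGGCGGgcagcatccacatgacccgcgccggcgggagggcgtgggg
SLC25A45: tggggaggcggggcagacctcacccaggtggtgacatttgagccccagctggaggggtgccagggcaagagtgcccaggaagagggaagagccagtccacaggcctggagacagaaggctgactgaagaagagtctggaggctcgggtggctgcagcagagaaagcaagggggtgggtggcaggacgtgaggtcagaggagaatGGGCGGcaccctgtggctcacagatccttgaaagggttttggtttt
SLC25A3: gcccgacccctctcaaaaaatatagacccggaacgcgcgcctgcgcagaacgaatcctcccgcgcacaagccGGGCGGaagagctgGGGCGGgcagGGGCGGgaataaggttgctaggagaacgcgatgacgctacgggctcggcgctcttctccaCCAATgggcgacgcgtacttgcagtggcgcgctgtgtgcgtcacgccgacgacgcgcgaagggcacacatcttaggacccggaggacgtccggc

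The ADP/ATP carriers exchange cytosolic ADP for ATP made in the matrix. SLC25A6, the widely expressed form, had the gene-end region of highest fold in the family in shNIT2, and its 2 regions had the highest gene-end pileups. One ran from 1392399 to 1392931 on chromosome X, upstream of the gene, at 10.4-fold on 76 fragments, and the other from 1391374 to 1392113, over the start and into the gene, at 9.46-fold on 68 fragments. The shNT list had no region within 1 kb of SLC25A6, and its nearest one lay 1187 bp upstream (6.41-fold on 10 fragments). SLC25A6 lies in the pseudoautosomal region shared by X and Y, and the sources used here do not say how reads matching both were placed. Both of its regions also touched the end window of LOC124900597. SLC25A5, the form of dividing cells, was marked at 7.32-fold on 25 fragments (chromosome X, 119468559 to 119469058), where SLC25A5-AS1 starts as well. SLC25A4, the heart and muscle form, was marked at 3.45-fold on 11 fragments (chromosome 4, 185143379 to 185144063), with its background at the list's floor. SLC25A31, the germ-cell form, had no region in either list, the nearest shNIT2 region lying 9118 bp from a gene end. Several processed pseudogenes of SLC25A5 and SLC25A6 exist, so reads in their coding parts may be placed uncertainly.

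Upstream of their starts the marked ADP/ATP carriers were rich in CpG dinucleotides. SLC25A6 had 35 CpG in 250 bases and 4 GC boxes, SLC25A5 had 30 CpG, 5 GC boxes and a TATA box, and SLC25A4 had 27 CpG, an ETS match and a CCAAT box. The unmarked SLC25A31 had 21 CpG, no GC box and 4 E boxes.

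The phosphate carrier SLC25A3 brings phosphate, and copper, into the matrix. It was marked in shNIT2 at 8.16-fold on 28 fragments (chromosome 12, 98593777 to 98594724), and shNT had no region within 34106 bp of its ends. Among the ATP-Mg/phosphate carriers, which adjust the matrix pool of adenine nucleotides, SLC25A24 (chromosome 1, 108199480 to 108200235, 7.40-fold on 30 fragments) and SLC25A25 (chromosome 9, 128068308 to 128069290, 7.05-fold on 28 fragments) were marked in shNIT2. SLC25A23 and SLC25A41, which overlap each other on chromosome 19, had no region within their spans or 1 kb around them, although a shNIT2 region of 5.79-fold lay 1441 bp beyond SLC25A41.

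All 4 di- and tricarboxylate carriers were marked in shNIT2, where 36.8% of all genes were. The role classes are small, and no class was tested against that share. The dicarboxylate carrier SLC25A10 had 5.47-fold on 24 fragments (chromosome 17, 81712451 to 81713267). The oxoglutarate/malate carrier SLC25A11 of the malate-aspartate shuttle had 4.33-fold on 21 fragments, in a region that also touched the start window of RNF167. The oxodicarboxylate carrier SLC25A21 had 4.22-fold on 19 fragments, where the antisense gene SLC25A21-AS1 also starts. The citrate carrier SLC25A1, which exports citrate for lipid synthesis, had 3.45-fold on 11 fragments, near an end of CLTCL1.

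Of 9 amino acid carriers, 5 were marked in shNIT2 (55.6%, against 36.8% of all genes). The aspartate/glutamate carrier SLC25A13 had 9.72-fold on 62 fragments (chromosome 7, 96321487 to 96322133), which put it second to SLC25A6 among the members. Its paralogue SLC25A12 had no shNIT2 region, and its span held a single shNT region, 73595 bp from the start at 4.70-fold on 5 fragments. The glycine carrier SLC25A38 had 5.20-fold on 29 fragments (chromosome 3, 39383718 to 39384096), in a region that also touched LOC105377644. The basic amino acid carrier SLC25A29 had 4.72-fold on 23 fragments (chromosome 14, 100305771 to 100306336) and, upstream, 4.64-fold on 21 fragments, near MIR345. The ornithine carrier SLC25A15 had 4.02-fold on 13 fragments and 3.45-fold on 11. The branched-chain amino acid carrier SLC25A44 had 2.82-fold on 18 fragments, in a region that ended 479 bp before the gene. The glutamate carriers SLC25A18 and SLC25A22 and the intronless ornithine carrier SLC25A2 had no region in either list.

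Among 11 carriers of cofactors, nucleotides and carnitine, 3 were marked in shNIT2 (27.3%, against 36.8% of all genes). The pyrimidine nucleotide carrier SLC25A36 had 6.01-fold on 27 fragments (chromosome 3, 140942267 to 140942947), the peroxisomal carrier SLC25A17 had 4.31-fold on 14, and the NAD carrier SLC25A51 had 3.34-fold on 13. The second pyrimidine carrier, SLC25A33, had regions of both lists in its interior only, at 5.32-fold and 4.02-fold in shNIT2 and at 3.89-fold and 3.08-fold in shNT. In SLC25A16 (a coenzyme A carrier candidate), SLC25A26 (the S-adenosylmethionine carrier) and SLC25A42 (a coenzyme A carrier), shNT regions alone were present, on 4 or 5 fragments each. They were at 3.91-fold in SLC25A16, at 4.53-fold and 3.76-fold in SLC25A26, and at 4.70-fold and 3.74-fold in SLC25A42. SLC25A20 (the carnitine/acylcarnitine carrier), SLC25A32 and SLC25A52 had no region.

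Of the iron and glutathione carriers, 3 of 4 were marked in shNIT2, where 36.8% of all genes were. SLC25A40, a paralogue of the glutathione carrier SLC25A39, carried 2 regions, of 4.35-fold on 50 fragments (chromosome 7, 87875290 to 87876109) and of 4.25-fold on 43 (87876741 to 87877578). Its higher gene-end pileup was exceeded by gene-end pileups of SLC25A6 and SLC25A13 alone among the marked members. The local background there was 10.7 fragments, 4.32 times the lowest of the list. Both regions also touched the start window of DBF4, a regulator of DNA replication. The glutathione carrier SLC25A39 had 3.77-fold on 22 fragments, near LOC124904009. For mitoferrin 2, SLC25A28, the region that met the gene-end rule (3.53-fold, 13 fragments) lay outside the gene at the start of ENTPD7. The gene's RefSeq start, which lies inside the annotated span, had regions of 5.96-fold on 23 fragments and 3.12-fold on 20, and SLC25A28-DT starts there too. Mitoferrin 1, SLC25A37, had none.

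None of the 3 uncoupling-protein-like carriers, SLC25A14, SLC25A27 and SLC25A30, had a region in either list, as was so for 44.1% of all genes. Of 8 orphan or atypical members, SLC25A45 (8.26-fold, 48 fragments) and SLC25A43 (4.31-fold, 14 fragments) were marked in shNIT2, or 25% against 36.8% of all genes. SLC25A48 had a single interior region of 7.96-fold on 30 fragments, 126692 bp from the start. SLC25A34, SLC25A35, SLC25A46, SLC25A47 and SLC25A53 had none.

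Starts and far ends were told apart where the promoter table gave a strand. A RefSeq start and strand were found for 40 members, and the other 8 were not placed. Of the 40, 23 had a shNIT2 region within 1 kb of a start, against 39.3% of 15842 protein-coding genes, and 0 had one within 1 kb of the far end, against 3.87%, a share too small for 0 of 40 to be a result about the members. In shNT, 1 of the 40 had a region at a start (6.16% of all genes) and 0 at the far end (1.12%). Of the 29 shNIT2 regions at member starts, 22 had their summit downstream of the start, at a median of 316 bp over all 29 (quartiles 175 and 464). Over all genes, 66.3% of 8163 such summits lay downstream, at a median of 269 bp.

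Some carrier starts were flanked and others covered. A separate region on each side of the start was found for SLC25A15, SLC25A28, SLC25A29 and SLC25A40, 4 of the 23 (17.4%, against 22.3% of all genes marked at a start). The start base itself lay inside a region for 4 members (17.4%, against 22.3%). These were SLC25A6, SLC25A13, SLC25A21 and SLC25A45. At SLC25A44 the only region lay upstream.

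**Figure D2:**
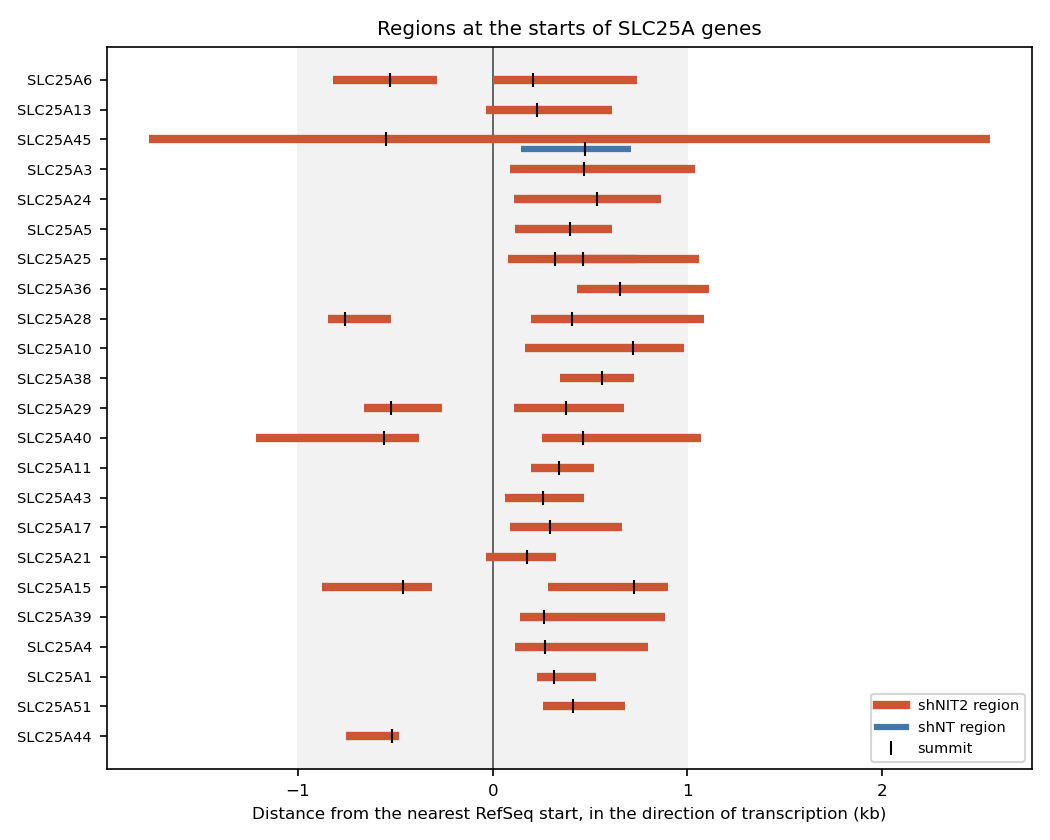
Bars show the extent of each region that touched a 1 kb window (grey) around a RefSeq start of 23 SLC25A genes, by distance in kb along the direction of transcription, with ticks at the summits. Genes are ordered by fold, highest at the top, and the 2 overlaid bars of SLC25A25 belong to different starts of that gene. Of the 29 shNIT2 summits 22 lie downstream of 0, and the only shNT bar is that of SLC25A45, drawn from the nearer of its 2 starts.

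SLC25A45 was the single carrier gene with a shNT region at a RefSeq start. In shNIT2 a region of 4322 bp (chromosome 11, 65380092 to 65384413), the widest at any member's end against a median of 573 bp, spanned both of its starts. In shNT a region of 566 bp (65381259 to 65381824) lay within that stretch, at 4.82-fold on 7 fragments, with its summit 475 bp downstream of the nearest start. It ended 1877 bp inside the upper end of the gene and so counted as interior. SLC25A45 also had the fewest CpG of any member marked at its start, 4 in 250 bases. 

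The members with the most interior regions were SLC25A21 (9 in shNIT2, 3 in shNT) and SLC25A25 (6 and 7). The 26 interior regions of shNIT2 fell in 9 members and the 23 of shNT in 12. Per Mb of interior, the members held 11 shNIT2 regions and 9.73 shNT regions, against 9.41 and 7.09 over all protein-coding genes. Without SLC25A25 the values were 8.61 and 6.88. Without SLC25A21 they were 9.09 and 10.7. The shNT interior regions of members were shallow, with a median of 4 fragments and a range from 3 to 12. The single shNT regions of SLC25A13 (3.44-fold), SLC25A17 (3.61-fold), SLC25A28 (3.76-fold) and SLC25A43 (4.70-fold) lay inside genes whose ends were marked in shNIT2, and none of the 4 overlapped a shNIT2 region. Of these 23 regions 5 overlapped a shNIT2 region, and 3 of the 5 were in SLC25A25. The share of all shNT regions that overlap a shNIT2 region is not given here. The overlap counts are thus not a result about the members.

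SLC25A25 held 7 interior regions in shNT and 6 in shNIT2, the most of any member in shNT. The strongest shNT region over any member lay here (chromosome 9, 128077726 to 128078076, 9.93-fold on 12 fragments), with its summit 9701 bp downstream of the outer start. It overlapped a shNIT2 region of 1560 bp from 128077454 to 128079013 (6.74-fold on 53 fragments), as did the shNT region from 128078467 to 128078814 (4.65-fold on 5 fragments). A further pair overlapped from 128079477 to 128080192 in shNT (6.49-fold on 8 fragments) and from 128079429 to 128080952 in shNIT2 (8.27-fold on 36 fragments). The outer start, marked in shNIT2 together with the start of NAIF1, had no shNT region, and a shNIT2 region from 128098829 to 128099243 (5.22-fold on 22 fragments) had its summit 464 bp downstream of an inner start.

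SLC25A21, the longest member at 494686 bp, held 9 interior regions in shNIT2 and 3 in shNT. A group of 4 shNIT2 regions lay between 36973003 and 36983543 on chromosome 14, with summits 189903 to 198995 bp downstream of the start. The strongest reached 9.78-fold on 72 fragments, against 4.22-fold at the start. The shNT region from 36981589 to 36981947 (3.61-fold on 4 fragments) overlapped 1 of the 4.

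**Figure D3:**
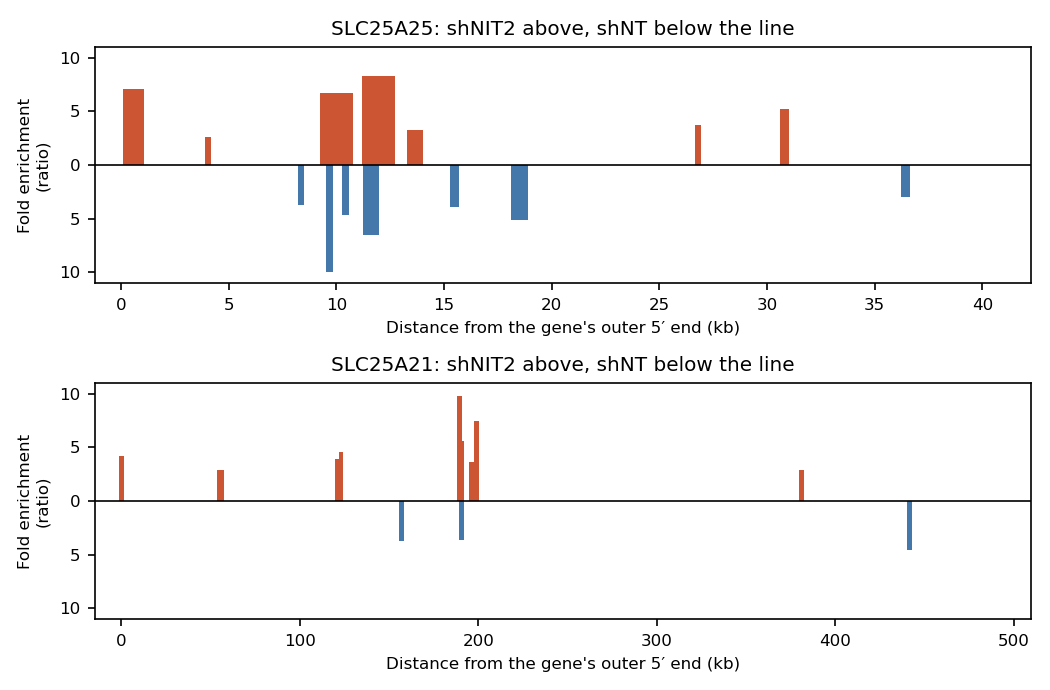
Regions along SLC25A25 and SLC25A21 by distance from the gene's outer 5′ end (kb), with the authors' fold enrichment (ratio) as bar height, shNIT2 above and shNT below the line. The narrowest regions are drawn at a minimum width. In SLC25A25 regions of both lists meet near 10 kb, while at the start only shNIT2 has a bar.

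In fold the marked carrier genes lay within the range of the shNIT2 list. Taking the highest gene-end fold of each, the 23 members ranged from 2.82 to 10.4 with a median of 4.35 (quartiles 3.90 and 7.18), against a median of 4.97 (3.87 and 6.98) over 7373 marked genes. Of all marked genes, 643 or 8.72% exceeded the highest member. The 1026 genes marked in both lists had a median shNIT2 fold of 7.36, which 5 members exceeded. Among all marked genes with a shNIT2 fold from 8 to below 11, 24.1% were also marked in shNT. Below 4-fold that share was 6.23%, and 6 members were in that range. The 4 members from 8 to below 11, SLC25A3, SLC25A6, SLC25A13 and SLC25A45, were not marked in shNT, but they are too few to set against that share. SLC25A45 had a shNT region at a RefSeq start, away from its gene ends. The nearest shNT region of SLC25A6 lay 1187 bp from the gene, beyond the 1 kb limit. Both of these shNT regions overlapped a shNIT2 region.

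The summit pileups of the 23 members had a median of 23 fragments, from 11 to 76. Divided by the ratio of the background floors, 14 of the 23 fell below 3 fragments, the smallest pileup of any shNT region, as did 56.8% of all genes marked in shNIT2. For the other 9 the scaled value was between 3.02 and 8.51 fragments, among them SLC25A6, SLC25A13, SLC25A40 and SLC25A45. The part of depth in the calls was not tested, and acetylation and depth cannot be told apart with 1 library per hairpin.

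Marked carrier genes were found in every class of gene length. Of 14 members up to 10000 bp long, 8 were marked at an end in shNIT2 (57.1%, against 28.4% of all genes of that length). Of 26 members between 10000 and 50000 bp, 11 were marked (42.3%, against 41.8%), and of 8 longer ones 4 were (50%, against 37.9%).

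The family members UCP2, MTCH1 and MTCH2 were marked in shNIT2, and UCP1 and UCP3 were not. This was 60% of only 5 genes, against 36.8% of all genes. Of 19 other inner membrane transporters 11 were marked in shNIT2 (57.9%, against 36.8% of all genes), including MPC2 of the pyruvate carrier and MCU, the pore of the calcium uniporter, and SFXN1, a serine transporter, was marked in both lists. The outer membrane channels VDAC1, VDAC2 and VDAC3 were all marked at gene ends in shNIT2 alone (31.7% of all genes were). But each of the 3 also held a shNT region within its span or 1 kb around it (28.5% of all genes did). Of the 2 with a RefSeq start 1 had a shNT region there (6.16% of all genes). Of 10 genes of the TIM22 import route 4 were marked (AGK, TIMM10, TIMM10B and TIMM29), or 40%, near the 36.8% of all genes. The 303 other SLC genes, taken by symbol whatever their location in the cell, were marked in 27.7% of cases in shNIT2 and 4.29% in shNT. The 77 mitochondrial ribosomal protein genes were marked in 61.0% and 3.90%. The carrier family thus lay between these lists in shNIT2, and none of these shares was tested against another.

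**Figure D4:**
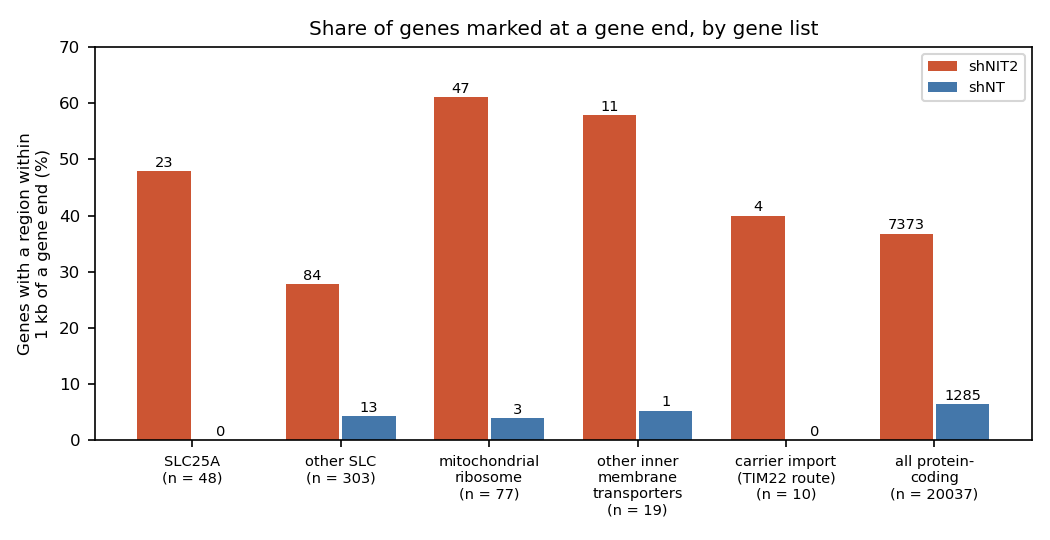
Share of genes (%) with a region within 1 kb of a gene end in shNIT2 and shNT for 6 gene lists, with the number of marked genes above each bar. The SLC25A bar of shNIT2 (47.9%) lies above that of all protein-coding genes (36.8%), and the SLC25A bar of shNT is at 0.

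Carrier starts marked in shNIT2 were richer in G, C and CpG than unmarked ones, with overlap. In the 250 bases upstream, the 23 marked members had a median of 72.8% G and C (49.6 to 82.0) and 27 CpG, and the 17 unmarked ones 64.4% (37.6 to 78.0) and 14 CpG. Over all genes the medians were 66.0% and 22 CpG for marked starts and 59.2% and 12 CpG for unmarked ones, so the same order held genome-wide. Fewer than 10 CpG were present at 1 marked member, SLC25A45, and at 4 unmarked ones, SLC25A18, SLC25A26, SLC25A34 and SLC25A47. The unmarked SLC25A12 had 42 CpG, as many as the marked SLC25A40.

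**Figure D5:**
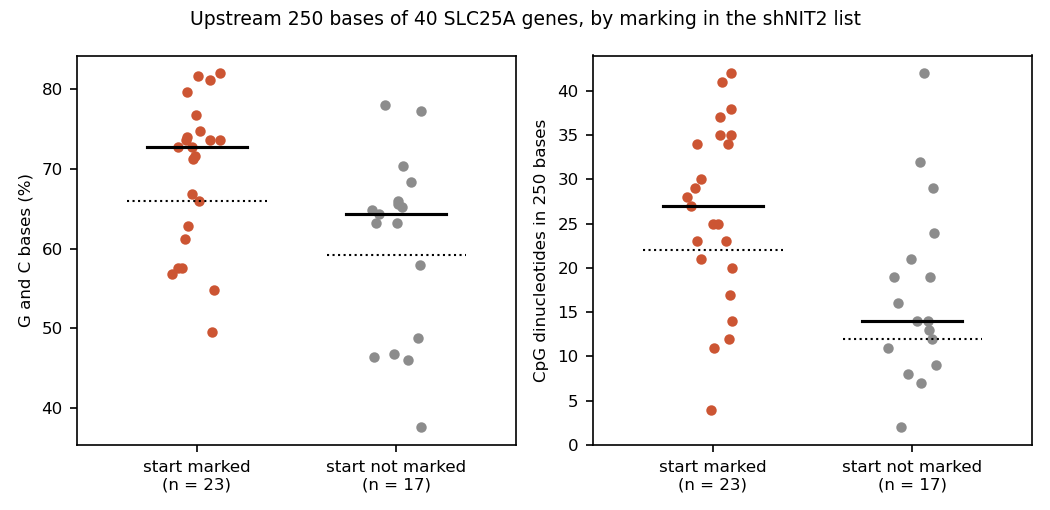
G and C content (%) and number of CpG dinucleotides in the 250 bases upstream of the start of 40 SLC25A genes, by whether the start was marked in shNIT2. Solid lines are medians of the members and dotted lines medians of all protein-coding genes of the same class. The groups overlap, with medians of 27 and 14 CpG.

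Motif matches were present upstream of marked and unmarked members. The GC box was present upstream of 29 of 40 members (72.5%, against 55.8% of all protein-coding promoters), 18 of the 23 marked and 11 of the 17 unmarked. The CCAAT box was present in 17 (42.5%, against 34.5%), ETS in 9 (22.5%, against 11.7%) and the E box in 7 (17.5%, against 7.80%). The TATA box was present in 3 (7.50%, against 9.35%), at SLC25A5, SLC25A18 and SLC25A26. The NRF1 letters were in 0 of 40 (1.49% of all) and the ERR letters in 0 (0.208%). A match describes the letters in this window only.

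Among regions outside a gene that met the 1 kb limit, that of SLC25A44 was the farthest, with a gap of 479 bp to the gene. Just beyond the limit, outside the gene, were SLC25A41 in shNIT2 (1441 bp) and, in shNT, SLC25A6 (1187 bp) and SLC25A16 (1247 bp, 5.45-fold on 6 fragments). The shNT region of SLC25A45 was also beyond the limit, but lay inside the gene, 1877 bp from its upper end.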

How the data were processed

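H3K14ac ChIP-seq peak lists of 2 MKN45 libraries were used, 1 per hairpin. Peaks are on hg38, and the tools listed are MACS2 2.1.1, Bowtie2 2.2.6, FastQC, ChIPseeker, Trimmomatic 0.35 and cutadapt 1.9.1, per the submitters' processing notes, which give no roles. The sources used here do not say whether the inputs were the control or how duplicate and multiply mapped reads were handled. Total reads per library are unknown. The deposited lists give per region a score, a fold enrichment (a ratio), a −log10 p-value, a −log10 q-value and the summit, all the authors' own values. The lowest −log10 q was 1.30 in both lists.

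Genes came from a RefSeq table of GRCh38.p14 (20037 protein-coding genes on the main chromosomes). Starts, strands and upstream bases came from RefSeq's promoter table (GRCh38.p14), which matched 40 of 48 members and 15842 genes. Where a gene has several listed starts, sequences were taken at the outermost. A region marked a window when it overlapped by at least 1 bp. Whole-number pileups were solved from fold and −log10 p by the Poisson upper tail, within 0.1%, and failed for 15 shNT and 11 shNIT2 regions. The solver and the marking step were tested on simulated data. Python 3.11.15, pandas 2.3.3 and scipy 1.17.1 were used. Values were planned for members with the 12 highest shNIT2 folds at a gene end, the strongest of each role class, and all with a shNT region. Folds are given for these and for the other members with a region in either list. The members and lists were chosen with earlier results of these data known. No test was made. One gene's own result is not reported here by name. Alternatives changed the q or fold threshold, the number of regions, the window, the overlap and the use of summits.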

Additional observations from a re-analysis of the deposited data

How the results depend on the processing

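A count was taken to have stayed when within 1.5 times the reported one. Among the 8 main counts, alternatives gave 22 values that moved and 46 that stayed. Some stayed by construction: shNT marked 0 members at a gene end in the full list, so a stricter threshold could give no other count there or in both lists, and every member then marked was marked in shNIT2 alone. Of regions with a −log10 q of 5 or more, 15 members had one at a gene end in shNIT2 (27.5% of all genes did). In shNT 1 member then had a region (5.93% of all genes). The region counts were then 32 in shNIT2 and 2 in shNT. At −log10 q of at least 10, 10 members were marked in shNIT2, 14 members had any shNIT2 region and 1 any shNT region, with 20 and 1 regions. At a fold of at least 5, 10 members were marked in shNIT2 (18.3% of all genes were). Any shNIT2 region was then present in 15 members (24.9% of all genes) and any shNT region in 1 (10.4%), with 21 and 3 regions. Folds are not compared between the lists, so each count is set only against the share of all genes in its own list. With the 28187 strongest regions of each list, which is the whole shNIT2 list, 12 shNT regions lay over members. With windows of 3 kb, shNT marked 3 members (6.25%, against 12.1% of all genes), 2 of them in both lists (4.17%, against 8.84%). With RefSeq starts in place of gene ends, chosen after seeing the data, shNT marked 1 member, also marked in shNIT2. The share of members marked in shNIT2 stayed above that of all genes under the other thresholds, windows and overlaps and with summits in place of regions. It was 31.3% against 27.5% for −log10 q of at least 5 and 20.8% against 16.7% for at least 10. The shares were closest at a fold of at least 5, 20.8% against 18.3%, and none of these differences was tested. No paired analysis was possible because each hairpin had 1 H3K14ac library. The smallest pileup was 3 fragments in shNT and 9 in shNIT2. Lists called on 1 library each give no replicate check.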
